A study of Homo sapiens with 24 samples.

Results

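The genes described here are the zinc-finger genes of human chromosome 19, the 241 protein-coding genes of that chromosome whose symbol is ZNF followed by a number, out of 60232 gene rows in the deposited table. They were chosen by name, type and position, with no use of measured values. RNA sequencing measured messenger RNA in 3 groups of 3 libraries, all from 22Rv1 cells, a human line established from a prostate carcinoma. One group received KB02 and one received KB05, both at 200 µM, and the control group received the solvent DMSO. The labels give 3 h as the time for all 3 groups, and the design text describes 1 h of exposure to either compound and then 2 h of recovery in fresh medium, with treatments in biological triplicate. Only code names are given for both small molecules, and all cells, the controls included, belong to the same line. The study design asks which transcripts differ after each compound, and the equal dose and time allow KB05 to be set against KB02 directly.

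Most ZNF genes of chromosome 19 encode proteins with an array of C2H2 fingers, small folds in which a pair of cysteines and a pair of histidines hold a zinc ion and which together read a DNA sequence. In many of them a KRAB domain at the front of the protein binds the corepressor TRIM28, which brings in the histone methyltransferase SETDB1 and HP1 proteins and so silences the bound site, often a transposable element. The genes lie in tandem clusters that grew by repeated duplication in primate evolution, so neighbours resemble each other in sequence.

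A KRAB pattern was found in the translated coding sequence of 200 of the 241 genes, and the finger pattern occurred between 0 times in ZNF738 and 36 times in ZNF208, with a median of 12. Grouping genes whose neighbours start within 1 Mb gave 16 position clusters on the GRCh38 build, numbered here from the start of the chromosome. Cluster 3, chr19:11483427-12640098, held 25 genes from ZNF653 to ZNF791, and cluster 15, chr19:51571298-53580269, held 39 genes from ZNF175 to ZNF331. The largest, cluster 16 near the chromosome end, held 57 genes.

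Because several results below turn on cluster 3, a single finger with its linker from 5 of its genes is shown beside one from ZNF224, a gene of cluster 12. Each is a stretch of 84 bases of a GENCODE release 29 coding transcript on GRCh38, written 5′ to 3′, and capitals mark the codons of the 2 cysteines and 2 histidines that bind zinc.
ZNF844: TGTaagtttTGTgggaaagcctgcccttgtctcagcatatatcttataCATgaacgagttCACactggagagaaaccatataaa
ZNF442: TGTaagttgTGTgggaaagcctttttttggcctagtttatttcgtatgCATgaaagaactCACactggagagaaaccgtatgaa
ZNF433: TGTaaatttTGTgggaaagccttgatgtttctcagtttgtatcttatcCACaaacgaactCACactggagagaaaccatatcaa
ZNF441: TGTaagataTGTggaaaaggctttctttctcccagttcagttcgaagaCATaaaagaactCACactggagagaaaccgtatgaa
ZNF763: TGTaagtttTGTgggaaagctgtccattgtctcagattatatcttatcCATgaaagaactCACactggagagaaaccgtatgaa
ZNF224: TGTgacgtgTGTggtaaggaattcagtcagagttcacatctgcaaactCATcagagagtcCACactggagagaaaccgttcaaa
The ZNF844 unit matched the ZNF763 unit at 85.7% of bases and the ZNF442 unit at 78.6%, while units of cluster 3 matched the ZNF224 unit at 51.2% to 59.5%. Each unit was the first in its protein to fit a set pattern of finger and linker, so part of the identity is built in. Units were not matched by their place in the array of fingers. Over whole transcripts, a median of 11.9% of the 31-base words of a gene also occurred in another gene, and 63 of the 241 genes shared 20% or more. Reads from such shared stretches were divided between genes by estimate, so a value for ZNF763, with 56.2% of its words shared, or ZNF20, with 58.5%, is less certain than one for ZNF441, with 2.89%.

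The 250 bases before the start of 4 genes are also shown, because these genes stand for the patterns described below: ZNF844 and ZNF442 were higher after both compounds, ZNF547 passed the test with KB02 and not with KB05, and ZNF224 was lower after both. Sequences and starts are from RefSeq on GRCh38.p14, at chr19:12064481-12064730 (plus strand) for ZNF844, chr19:12365684-12365933 (minus strand) for ZNF442, chr19:57363301-57363550 (plus strand) for ZNF547 and chr19:44094111-44094360 (plus strand) for ZNF224. Capitals mark matches on either strand to the 10 short motifs searched.
ZNF844 promoter: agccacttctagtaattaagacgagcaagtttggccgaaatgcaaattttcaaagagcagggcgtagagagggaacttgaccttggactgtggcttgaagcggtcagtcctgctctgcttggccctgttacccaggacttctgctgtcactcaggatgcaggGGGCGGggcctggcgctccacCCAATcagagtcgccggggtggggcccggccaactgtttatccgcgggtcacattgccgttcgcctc
ZNF442 promoter: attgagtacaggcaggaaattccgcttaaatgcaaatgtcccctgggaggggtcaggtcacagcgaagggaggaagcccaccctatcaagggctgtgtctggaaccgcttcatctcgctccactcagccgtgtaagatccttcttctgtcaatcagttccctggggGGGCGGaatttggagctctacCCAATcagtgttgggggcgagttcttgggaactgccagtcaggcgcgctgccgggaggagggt
ZNF547 promoter: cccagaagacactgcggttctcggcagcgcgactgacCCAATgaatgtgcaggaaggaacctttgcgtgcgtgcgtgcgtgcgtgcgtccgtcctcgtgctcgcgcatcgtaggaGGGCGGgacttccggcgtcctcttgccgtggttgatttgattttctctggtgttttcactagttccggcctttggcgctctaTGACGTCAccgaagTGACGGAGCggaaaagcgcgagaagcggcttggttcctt
ZNF224 promoter: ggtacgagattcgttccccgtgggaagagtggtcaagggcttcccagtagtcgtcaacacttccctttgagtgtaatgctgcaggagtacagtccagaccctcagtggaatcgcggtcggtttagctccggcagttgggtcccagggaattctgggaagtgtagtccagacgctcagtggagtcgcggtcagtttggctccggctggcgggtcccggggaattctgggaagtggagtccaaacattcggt
In ZNF844 a GC box, GGGCGG, began 88 bases before the start and a CCAAT box began 67 bases before it. In ZNF442 the same pair began 84 and 63 bases before the start. ZNF547 had both boxes far upstream, at 213 bases (CCAAT box) and 135 bases (GC box) before the start. Nearer the start it had the cyclic AMP response element TGACGTCA, at 53 bases, and the antioxidant response element core TGACNNNGC, at 39 bases, and these did not overlap. No searched motif was found in this window of ZNF224. The RefSeq starts used here differ from the ends of the GENCODE gene spans used elsewhere in the text. The GENCODE span of ZNF442 reaches chr19:12365905, so both of its boxes lie inside that span. In ZNF547 the motifs at 53 and 39 bases also lie inside the GENCODE span.

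A promoter was on record for 210 of the 241 genes. The GC box was present in 66.7% of them, against 42.3% of 27305 RefSeq promoters, and the CCAAT box in 50.5%, against 33% of all promoters. Those 27305 were not limited to protein-coding genes, and their median count of CG dinucleotides was 11, against 16 here. By KB02 call, the GC box was present in 67.9% of higher genes, 56.2% of lower genes and 64.9% of genes not called. TATAAA, the TATA box, was present in 1.9%, against 11.1% of all promoters. The heat shock element core GAANNTTC occurred in 9.52%, against 5.85% of all, and the antioxidant response element core in 11.9%, against 11%. The remaining motifs were the AP-1 site TGAGTCA (2.38%, against 4.16%), the cyclic AMP response element (2.38%, against 1.77%) and the E-box CACGTG (3.33%, against 6.49%). The NRF1 site was found in 1.9%, against 1.13%, and the YY1 site GCCATNTT in 6.67%, against 3.91%. Palindromic motifs match both strands at once, and a match is not a measured binding site.

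The spacing seen in ZNF844 and ZNF442, GGGCGG followed on the same strand by CCAAT with 10 to 20 bases between them, was searched after those sequences had been read. It was found in 15 of 24 promoters of cluster 3, in 12 of 29 of cluster 5 and in 3 of 5 of cluster 1, and in no promoter of the other clusters. Among 27095 promoters of other genes it occurred in 161, or 0.594%. In cluster 3, 12 of the 15 genes with the pair were higher after KB02 than after DMSO, with a median log2 fold change of 1.33, against 5 of the 9 genes without it, with a median of 0.78. With KB05, 9 of the 15 were higher (median 0.76), against 4 of the 9 without it (median 0.48). The 15 include ZNF844 and ZNF442, in which the spacing was first read. Over all 3 clusters, 28 genes with the pair were tested. Of these 19 were higher with KB02 and 12 with KB05, beside 120 (52.6%) and 73 (32%) of all 228 tested chromosome 19 ZNF genes. Over all genes tested the shares were 22.8% and 18.7%. The 28 include the 15 of cluster 3, which gave 12 of the 19 and 9 of the 12. These counts are a description of neighbouring, related genes, and no test was made.

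Levels are given as CPM, the count of a gene after all libraries were brought to one common size by TMM factors. Total counts per library ran from 15506975 to 21900548, and 3 counts, used as the floor of detection, equalled 0.129 to 0.195 CPM; such a floor covers counting error only. All 10 markers of the prostate carcinoma line averaged at least 1 CPM in DMSO libraries, and 8 of 16 markers of other cell types averaged under 1 CPM. Summed over the 16, these markers lay at 178 to 192 CPM in KB02 libraries, 238 to 268 CPM in KB05 libraries and 269 to 321 CPM in DMSO libraries. Most of that sum was SYP, a synaptic vesicle gene that marks neuroendocrine cells, with means of 124, 206 and 247 CPM in KB02, KB05 and DMSO libraries. Other markers had another order: CD14, a monocyte gene, averaged 8.8, 0.397 and 0.541 CPM, and the collagen gene COL1A1 22.7, 19.7 and 14.5 CPM, in the same groups. The 10 markers of the line summed to 2461 to 2620 CPM in KB02 libraries, 3174 to 3233 CPM in KB05 libraries and 2698 to 3064 CPM in DMSO libraries. The part of either list in the results below was not tested. Of the 241 genes, 92 overlap another coding gene, introns included. The sources used here do not say whether reads were assigned by strand, so reads from a stretch that both partners cover may not be told apart. Of the genes described below this holds for ZNF20, ZNF28, ZNF284, ZNF333, ZNF345, ZNF382, ZNF428, ZNF432, ZNF433, ZNF473, ZNF493, ZNF547, ZNF565, ZNF574, ZNF576, ZNF627, ZNF649, ZNF763, ZNF17, ZNF146, and ZNF701 with ZNF808, and their values are uncertain to that extent. The transcripts of these genes differ in the share of 31-base words found in another gene, with 0.994% for ZNF574, 5.63% for ZNF627 and 56.2% for ZNF763. In bulk RNA, fewer cells of a kind and less RNA per cell cannot be told apart.

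Not all of these genes were expressed enough to test. Of the 241, 228 passed the filter on low counts and were tested. The other 13, ZNF536 and ZNF541 among them, had at most 62 counts over the 9 libraries. ZNF536 is a repressor of neuronal differentiation and ZNF541 acts in spermatogenesis. The median over the 228 tested genes was 9.29 CPM in KB02 cells, 7.47 CPM in KB05 cells and 6.8 CPM in DMSO cells. Per kilobase of transcript, ZNF428 was the highest in DMSO cells at 48.9 CPM per kb, and ZNF787 followed at 27.4 CPM per kb.

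Summed over the 241 genes, the level was 3060, 3097 and 3212 CPM in KB02 libraries, 2518, 2491 and 2526 CPM in KB05 libraries and 2126, 2152 and 2179 CPM in DMSO libraries. The 3 groups did not overlap, with KB02 highest and DMSO lowest. The mean was 3123 ± 79.5 CPM for KB02, 2512 ± 18.5 CPM for KB05 and 2152 ± 26.3 CPM for DMSO (SD, n = 3 each), that is 1.45 times and 1.17 times the DMSO mean. The 235 ZNF genes on other chromosomes summed to 4800 ± 73.9 CPM with KB02, 4314 ± 19.6 CPM with KB05 and 3929 ± 30.3 CPM with DMSO (SD, n = 3 each), or 1.22 and 1.1 times the DMSO mean. The sum over the 1227 other coding genes of chromosome 19 was 1.02 and 1.1 times that of DMSO.

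**Figure D1:**
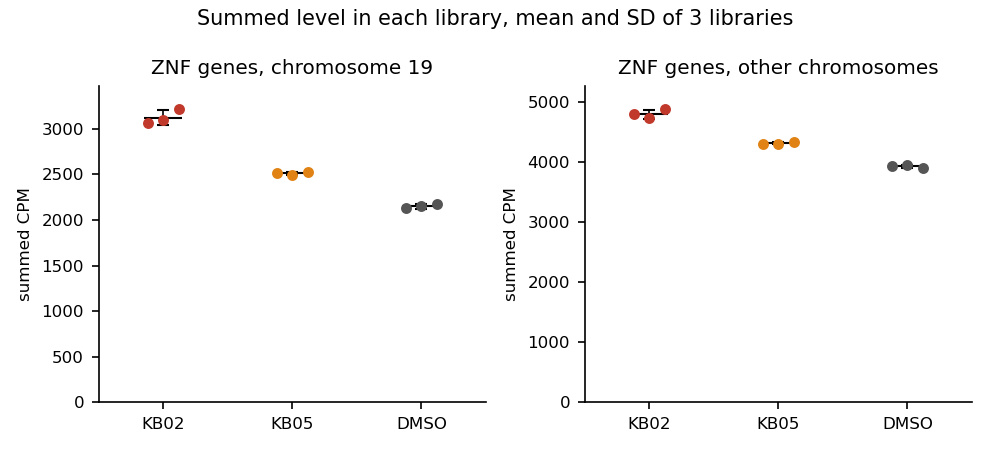
Summed level in CPM (vertical axis) of ZNF genes on chromosome 19 (left panel) and on other chromosomes (right panel) in each library, with the mean and SD of 3 libraries. The chromosome 19 sum lay between 3060 and 3212 CPM in KB02 libraries, between 2491 and 2526 CPM in KB05 libraries and between 2126 and 2179 CPM in DMSO libraries.

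KB02 raised many more chromosome 19 ZNF genes than it lowered. Of the 228 tested, 120 were higher than in DMSO cells (52.6%) and 19 were lower (8.33%), at an adjusted p under 0.05 in edgeR's quasi-likelihood test with Benjamini-Hochberg adjustment over all genes. Over all 18379 genes tested 46.1% were called, 22.8% higher and 23.3% lower. Calls with a difference of at least 2-fold were made for 44 higher and 1 lower genes of the list, beside 6.04% and 6.28% of all genes tested. Both counts of higher genes include 6 with a mean under 1 CPM over the 9 libraries, and no lower gene was at that level. The limit given below for genes of that level holds for these 6. The median log2 fold change was 0.39, with quartiles of 0.01 and 0.9, beside a median of 0.0 over all genes. Library by library, the median difference from the DMSO mean was 0.38, 0.35 and 0.41 on the log2 scale. Among ZNF genes of other chromosomes 92 of 211 tested were higher (43.6%, median 0.25), and among other coding genes of chromosome 19 298 of 882 were higher (33.8%, median 0.11). Without the first KB02 library the count of lower genes was 9. When libraries were scaled by total count alone, 63.8% of all calls were in the higher direction, against 49.5% with the main scaling, and the ZNF counts were 130 higher and 9 lower.

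The count differed with the level of the gene, taken as the mean over all 9 libraries, treated ones included. A gene that rises can thus reach a higher class through its rise, as ZNF844 did from 6.89 CPM in DMSO libraries. The order of the shares may therefore be partly built in. With a mean of 20 CPM or more over the 9 libraries, 23 of 31 ZNF genes were higher with KB02 (74.2%) and 1 was lower, beside 28.9% higher over all genes of that level. Between 5 and 20 CPM, 75 of 131 were higher (57.3%), beside 25.6%, and between 1 and 5 CPM, 16 of 54 were higher (29.6%), beside 16%. Under 1 CPM, 6 of 12 were higher (50%), beside 13%. So low a gene can pass the low-count filter through just the group where it is high, so that share is not read as a result. Genes with the KRAB pattern (100 of 191 higher, 52.4%) and without it (20 of 37, 54.1%) had like shares.

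**Figure D2:**
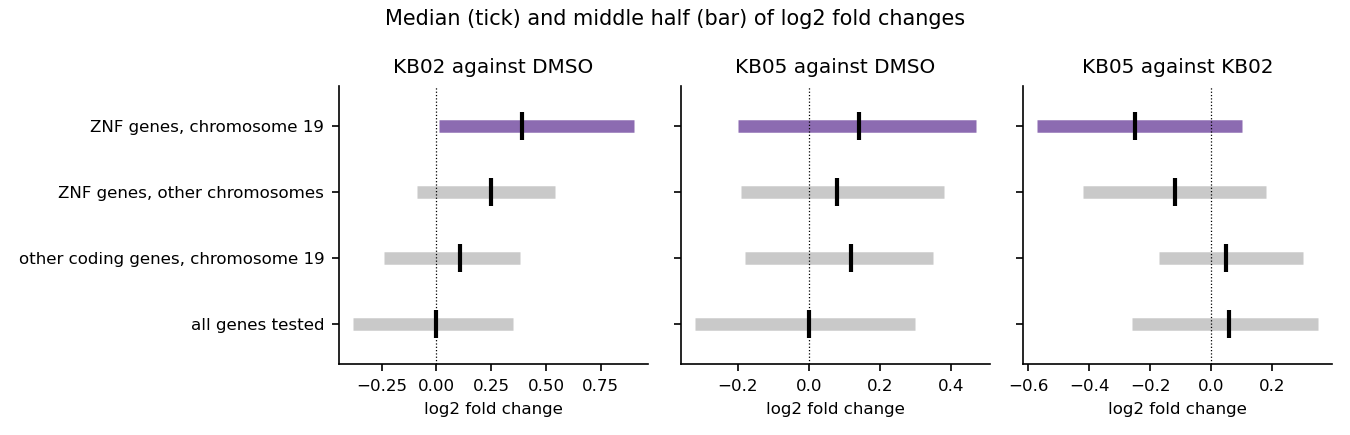
Median (tick) and range between the lower and upper quartiles (bar) of the log2 fold changes of tested genes in 4 gene classes (rows) for each comparison (panels). The chromosome 19 ZNF genes have a median of 0.39 for KB02 against DMSO, 0.14 for KB05 against DMSO and -0.25 for KB05 against KB02, and all genes tested have medians of 0.0, 0.0 and 0.06.

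ZNF844, a gene with a KRAB pattern and 6 finger patterns at chr19:12064699-12081565, had the largest rise. It measured 58.6, 65.1 and 68.2 CPM in KB02 libraries, 42.6, 43.0 and 37.4 CPM in KB05 libraries and 7.14, 5.99 and 7.54 CPM in DMSO libraries. Every KB02 library was above every KB05 library, and both groups were far above DMSO. Against DMSO it was 9.3-fold higher with KB02 (log2 fold change 3.22 ± 0.10 SE, adjusted p = 2.4e-21) and 5.96-fold higher with KB05 (2.58 ± 0.10, adjusted p = 9.81e-19).

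ZNF442, also in cluster 3, had 12.2, 12.9 and 12 CPM in KB02 libraries, 5.52, 5.98 and 5.23 CPM in KB05 libraries and 0.953, 1.6 and 2.01 CPM in DMSO libraries. The groups again stood apart in the same order. The log2 fold change was 3.03 ± 0.19 for KB02 (adjusted p = 2.65e-14) and 1.88 ± 0.20 for KB05 (adjusted p = 9.77e-09). ZNF433, another gene of the cluster, was higher by 1.86 ± 0.17 with KB02 and by 1.21 ± 0.18 with KB05 on the log2 scale.

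ZNF441, with 14 finger patterns, reached about the same level with either compound. It measured 18.1, 22.1 and 25.9 CPM in KB02 libraries, 23.4, 24.4 and 25.7 CPM in KB05 libraries and 6.03, 6.25 and 7.6 CPM in DMSO libraries. The libraries of the compounds overlapped and all lay above DMSO. ZNF763 and ZNF627, also of cluster 3, had log2 fold changes of 1.81 ± 0.20 and 1.71 ± 0.13 with KB02, and of 1.55 ± 0.20 and 0.99 ± 0.14 with KB05.

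ZNF547, in cluster 16 at chr19:57363477-57379565, followed another pattern. It had 27.0, 24.7 and 19.5 CPM in KB02 libraries, 3.02, 2.34 and 2.99 CPM in KB05 libraries and 2.65, 3.05 and 4.01 CPM in DMSO libraries. KB02 libraries stood alone, and KB05 and DMSO libraries overlapped. The rise with KB02 was 7.39-fold (log2 2.89 ± 0.16, adjusted p = 1.72e-15), while the KB05 difference was -0.20 ± 0.19 (adjusted p = 0.456, 95% interval -0.6 to 0.2). ZNF547 overlaps the coding gene TRAPPC2B.

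Rises were also found in other clusters. ZNF296, in cluster 12, had 22.2, 17.1 and 19 CPM in KB02 libraries, 7.92, 8.52 and 11 CPM in KB05 libraries and 3.02, 3.05 and 4.01 CPM in DMSO libraries, with no overlap between groups. Its log2 fold changes were 2.54 ± 0.16 with KB02 and 1.45 ± 0.16 with KB05. ZNF57, in cluster 1, and ZNF565, in cluster 9, rose by 1.75 ± 0.15 and 1.74 ± 0.19 with KB02. ZNF565 overlaps ZNF146, a gene of the opposite strand.

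Few of these genes fell with KB02. ZNF224, a KRAB protein known as a repressor of the aldolase A gene, had 11.5, 12.8 and 10.4 CPM in KB02 libraries, 8.18, 7.02 and 8.45 CPM in KB05 libraries and 20.7, 20.8 and 21.5 CPM in DMSO libraries. DMSO was highest and the groups did not overlap. It was 1.81-fold lower with KB02 (log2 -0.85 ± 0.11, adjusted p = 1.85e-07) and 2.65-fold lower with KB05 (-1.41 ± 0.12, adjusted p = 8.1e-11). ZNF224 shares 42.5% of its 31-base words with other genes.

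ZNF30, in cluster 8, was the one gene lower by at least 2-fold with KB02. It had 1.9, 1.67 and 0.998 CPM in KB02 libraries, 1.25, 2.6 and 3.51 CPM in KB05 libraries and 4.02, 3.82 and 3.16 CPM in DMSO libraries. KB02 libraries lay below all DMSO libraries, and KB05 libraries overlapped both groups. The log2 fold change was -1.25 ± 0.30 with KB02 (adjusted p = 0.0011) and -0.59 ± 0.29 with KB05 (adjusted p = 0.113). Without the third KB05 library, the KB05 difference was -0.96 (adjusted p = 0.0223).

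ZNF302, of the same cluster as ZNF30, fell by 0.58 on the log2 scale with KB02 (SE 0.15, adjusted p = 0.00147). The calls of 3 further genes were lost in some of the alternative fits. ZNF284, next to ZNF224, had a difference of -0.67 ± 0.24 with KB02, and its call was lost without the second DMSO library (adjusted p = 0.217), the first KB02 library (0.186) or the second KB02 library (0.0531), with library size as the only scaling (0.0628) and in DESeq2 (0.0719). ZNF345, of cluster 9, had -0.66 ± 0.25, and its adjusted p was 0.0615 without the first and 0.139 without the second DMSO library, and 0.147 and 0.0818 without the first and second KB02 libraries. For ZNF345 it was 0.0814 with library size as the only scaling and 0.088 in DESeq2. ZNF234 had -0.62 ± 0.20, with an adjusted p of 0.065 without the first DMSO library.

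**Figure D3:**
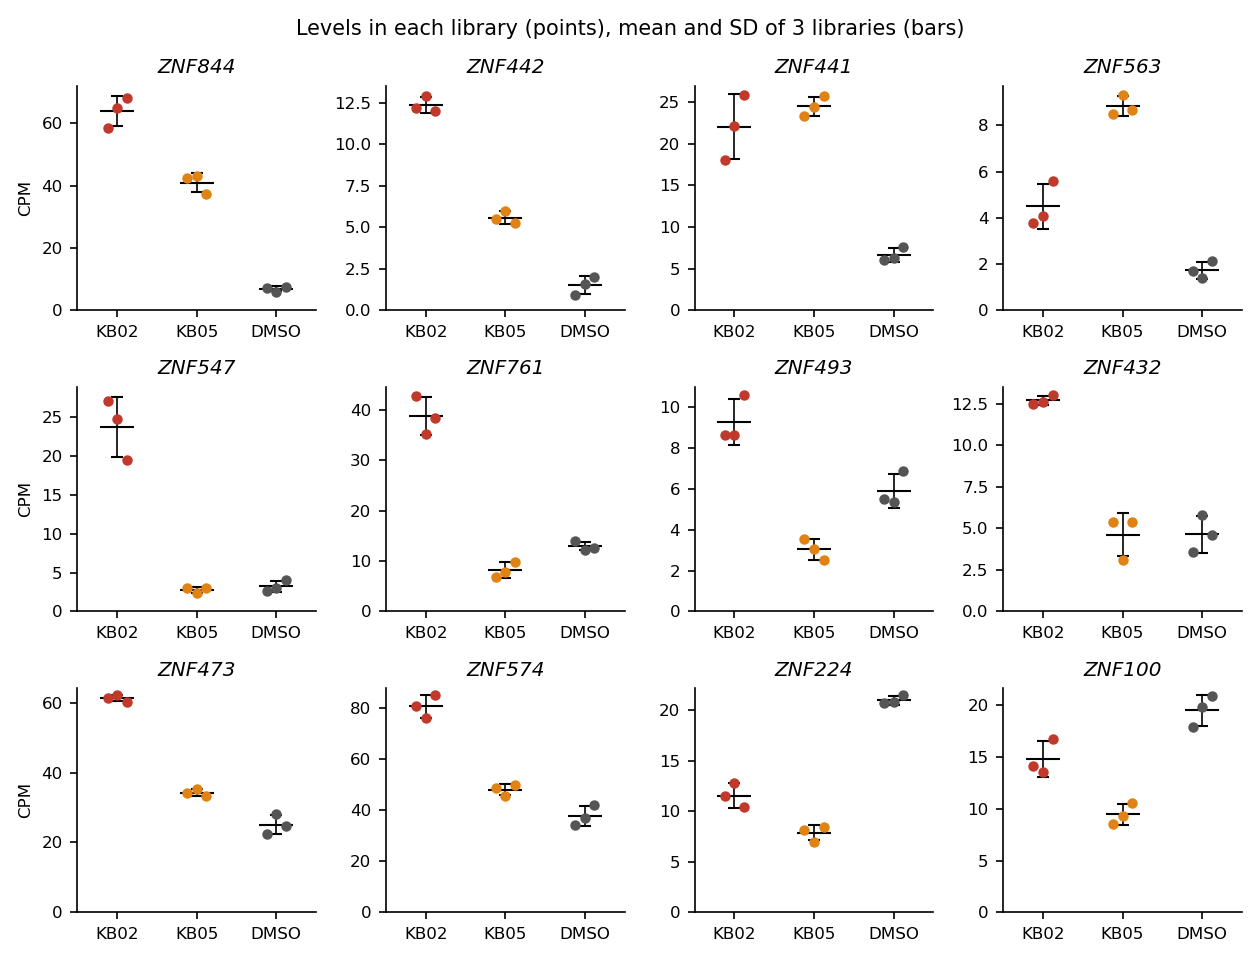
Level in CPM (vertical axis, from 0) of 12 chromosome 19 ZNF genes in each KB02, KB05 and DMSO library (points), with the mean and SD of 3 libraries (bars). The 3 groups stand apart for ZNF844, where DMSO libraries lie between 5.99 and 7.54 CPM, whereas KB05 and DMSO libraries overlap for ZNF547, and DMSO is highest for ZNF224.

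KB05 raised fewer of these genes, and in smaller steps. Of the 228 tested, 73 were higher than in DMSO cells (32%) and 35 lower (15.4%) in edgeR's quasi-likelihood test, beside 18.7% higher and 21.1% lower over all genes tested, 39.8% together. A difference of at least 2-fold was called for 21 higher and 6 lower genes, beside 4.97% and 2.7% of all genes. Of these higher genes 2 had a mean under 1 CPM over the 9 libraries, and no lower gene did. The limit given above for genes of that level holds for them. The median log2 fold change was 0.14, with quartiles of -0.2 and 0.47, and the medians of single libraries were 0.11, 0.14 and 0.12. ZNF genes of other chromosomes (31.3% higher, median 0.08) and other coding genes of chromosome 19 (31.9% higher, median 0.12) had like values. Both compounds were set against the same DMSO libraries, so their fold changes are not independent of each other.

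At 20 CPM or more, 20 of 31 ZNF genes were higher with KB05 (64.5%) and 3 lower, beside 23.7% higher over all genes of that level. Between 5 and 20 CPM, 41 of 131 were higher (31.3%) and 24 lower (18.3%), beside 19.7% and 25% of all genes of that level. These level classes also take in the treated libraries, so the same limit holds. Of the genes with the KRAB pattern 58 of 191 were higher with KB05, and of those without it 15 of 37.

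Some genes rose more with KB05 than with KB02. ZNF563, in cluster 3, had 3.79, 4.1 and 5.6 CPM in KB02 libraries, 8.49, 9.3 and 8.68 CPM in KB05 libraries and 1.69, 1.39 and 2.13 CPM in DMSO libraries. KB05 was highest and DMSO lowest, with no overlap. The log2 fold change against DMSO was 1.37 ± 0.21 with KB02 (adjusted p = 2.38e-06) and 2.35 ± 0.20 with KB05 (adjusted p = 1.15e-10).

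ZNF555, of cluster 1, showed the same order at a lower level, with 2.07, 2.34 and 2.38 CPM in KB02 libraries, 4.53, 4.94 and 5.4 CPM in KB05 libraries and 0.794, 1.29 and 1.16 CPM in DMSO libraries. Its log2 fold change was 1.06 ± 0.27 with KB02 and 2.19 ± 0.25 with KB05 (adjusted p = 4.01e-08). ZNF460, of cluster 16, had 1.21 ± 0.22 and 1.82 ± 0.22. ZNF20 had log2 fold changes of 1.33 ± 0.37 with KB02 and 1.47 ± 0.37 with KB05, and both calls were lost without the first DMSO library (adjusted p = 0.0645 for KB02, 0.051 for KB05) or the second (0.0569 for KB02, 0.0527 for KB05).

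Among the falls with KB05 after ZNF224, ZNF100 of cluster 5 had 14.1, 13.6 and 16.8 CPM in KB02 libraries, 8.55, 9.3 and 10.6 CPM in KB05 libraries and 17.9, 19.8 and 20.9 CPM in DMSO libraries. Its level was lowest with KB05 and highest with DMSO, and no groups overlapped. The log2 fold change was -1.04 ± 0.12 with KB05 (adjusted p = 3.9e-08) and -0.40 ± 0.11 with KB02, and the KB02 call was lost without the first (adjusted p = 0.0556) or the second KB02 library (0.0715), and with library size as the only scaling (-0.26, adjusted p = 0.0582).

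ZNF284 fell by 1.09 with KB05 (SE 0.25, adjusted p = 0.000705), and ZNF333, a gene outside the large clusters, by 1.05 (SE 0.24, adjusted p = 0.000684). ZNF132 had a difference of -1.10 ± 0.37 (adjusted p = 0.0191), with adjusted p-values of 0.0678 without the second DMSO library and 0.0607 and 0.0764 without the first and the third KB05 library.

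**Figure D4:**
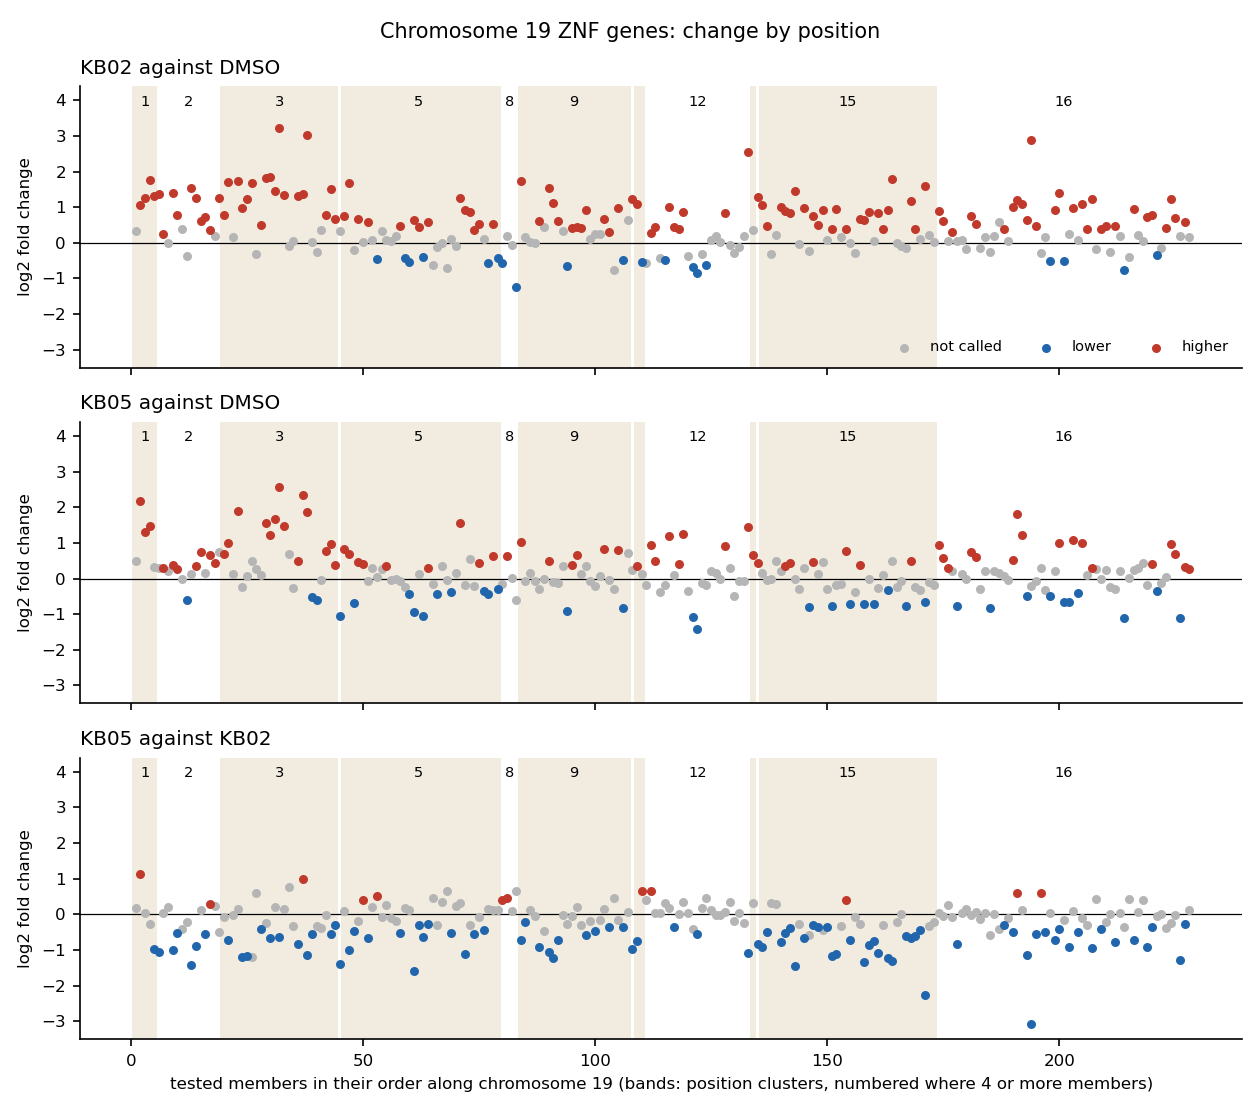
Log2 fold change (vertical axis) of the 228 tested genes in their order along chromosome 19 (horizontal axis) for each comparison; red and blue points are called higher and lower, and bands mark the numbered position clusters. Among genes of cluster 3, 18 of 25 are called higher for KB02 against DMSO and 14 of 25 for KB05 against DMSO, and in cluster 15, 24 of 38 are called lower for KB05 against KB02.

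Set against each other, the compounds differed mostly in one direction. With KB05, 90 of the 228 tested genes were lower than with KB02 (39.5%) and 12 were higher (5.26%) in edgeR's quasi-likelihood test, beside 18.2% lower and 21.8% higher over all genes tested, 40% together. Of the lower genes 23 differed by at least 2-fold, and of the higher genes 1, beside 5.23% and 4.11% of all genes. Among those 23 lower genes, 2 had a mean under 1 CPM over the 9 libraries, and the same limit holds for them. No higher gene was at that level. The median log2 fold change was -0.25, with quartiles of -0.57 and 0.1, beside a median of 0.06 over all genes. Among ZNF genes of other chromosomes 68 of 211 were lower (32.2%, median -0.12), and among other coding genes of chromosome 19 147 of 882 (16.7%, median 0.05). Median transcript length was 3910 bases for the 90 lower genes, 2829 bases for the 12 higher genes and 3168 bases for the 126 genes not called. Their median levels in DMSO cells also differed, at 8.93, 8.37 and 5.68 CPM in that order. A link between length and difference was not tested. The count of higher genes was 6 without the first and 7 without the second KB02 library. With scaling by total count alone, 37.4% of all calls were in the higher direction, against 54.4% with the main scaling, and the ZNF counts were 6 higher and 107 lower.

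ZNF547 had the largest difference and was 8.48-fold lower with KB05 than with KB02 (log2 -3.08 ± 0.16, adjusted p = 1.75e-15). ZNF761, a gene of cluster 15 with a KRAB pattern at chr19:53431993-53458261, had 6.77, 7.93 and 9.89 CPM in KB05 libraries, 42.8, 35.3 and 38.5 CPM in KB02 libraries and 13.9, 12.3 and 12.7 CPM in DMSO libraries. Its KB05 libraries were the lowest and its KB02 libraries the highest, with DMSO between them and no overlap. It was 4.75-fold lower with KB05 than with KB02 (log2 -2.25 ± 0.12, adjusted p = 1.52e-15).

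Against DMSO, ZNF761 was thus called in opposite directions, at 1.58 ± 0.11 with KB02 and -0.66 ± 0.13 with KB05. The same held for ZNF493, of cluster 5, with 3.54, 3.06 and 2.53 CPM in KB05 libraries, 8.66, 8.65 and 10.6 CPM in KB02 libraries and 5.5, 5.37 and 6.87 CPM in DMSO libraries. It was lower with KB05 than with KB02 by a log2 fold change of -1.60 ± 0.17 (adjusted p = 7.25e-09). ZNF28, of cluster 15, was also called in both directions, at 0.64 ± 0.13 with KB02, -0.71 ± 0.14 with KB05 and -1.35 ± 0.13 between the compounds.

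ZNF432, of cluster 15, had 5.37, 3.12 and 5.35 CPM in KB05 libraries, 12.5, 12.6 and 13 CPM in KB02 libraries and 3.55, 5.78 and 4.62 CPM in DMSO libraries. KB02 stood alone, and KB05 and DMSO overlapped. The log2 fold change between the compounds was -1.45 ± 0.18 (adjusted p = 1.52e-07). ZNF333 was lower with KB05 by -1.39 ± 0.23. Genes that rose with both compounds also differed between them: KB05 was lower than KB02 by -0.64 ± 0.09 for ZNF844 and by -1.15 ± 0.16 for ZNF442.

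In the other direction, ZNF555 was higher with KB05 than with KB02 by a log2 fold change of 1.13 ± 0.23 (adjusted p = 0.000179) and ZNF563 by 0.98 ± 0.18 (adjusted p = 4.14e-05). ZNF576 was higher by 0.66 ± 0.11 and ZNF526, of the same cluster as ZNF574, by 0.65 ± 0.12. For ZNF441 the difference was 0.16 ± 0.11 (adjusted p = 0.289, 95% interval -0.07 to 0.39).

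Several smaller differences of this kind lost the call when 1 library was left out or the method was changed. The difference of 0.61 ± 0.20 for ZNF460 had an adjusted p of 0.0559 without the second KB02 library, and 0.0559 in DESeq2. That of 0.51 ± 0.15 for ZNF737 had 0.0779 without the first KB02 library, and that of 0.40 ± 0.12 for ZNF701 had 0.0604 without the second KB02 and 0.103 without the first KB05 library, and 0.0673 with library size as the only scaling. ZNF17 (0.61 ± 0.24), ZNF181 (0.45 ± 0.17) and ZNF302 (0.41 ± 0.15) lost it on several occasions: without the first KB02 library their adjusted p-values were 0.241, 0.0827 and 0.0801, and without the second 0.0682, 0.175 and 0.138. Left out one at a time, the first and the third KB05 library gave 0.118 and 0.0998 for ZNF17, the second KB05 and the third KB02 library 0.193 and 0.0737 for ZNF181, and the first and second KB05 libraries 0.0512 and 0.157 for ZNF302. Scaled by library size alone, ZNF17, ZNF181 and ZNF302 had adjusted p-values of 0.102, 0.138 and 0.127, and in DESeq2 they were 0.124, 0.133 and 0.104. RLE factors gave 0.051 for ZNF17 and 0.0503 for ZNF181. ZNF17 also lost the call with no filter on low counts (0.0641) and in a fit of only the groups compared (0.0587).

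The clusters differed in their counts. Over all genes tested, 22.8% were higher and 23.3% lower with KB02, and 18.7% were higher and 21.1% lower with KB05. In cluster 3, 18 of 25 tested genes were higher and none was lower with KB02 (median log2 fold change 1.24), and 14 were higher and 2 lower with KB05 (median 0.68). In the small cluster 1, 4 of 5 genes were higher with KB02 and 3 of 5 with KB05. Cluster 2 had 10 of 14 higher with KB02 and 7 of 14 with KB05.

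Among clusters with 4 or more tested genes, cluster 15 had the highest share called between the compounds. There 23 of 38 genes were higher and none lower with KB02 (median 0.43), whereas 6 were higher and 8 lower with KB05 (median -0.09), and 24 of 38 were lower with KB05 than with KB02 (63.2%, median -0.51), beside 18.2% of all genes tested. ZNF175 and ZNF350 of this cluster had that form. ZNF175, known to repress the HIV-1 promoter, was higher by 1.06 ± 0.15 with KB02 and by 0.15 ± 0.16 with KB05 (adjusted p = 0.503). ZNF350, a BRCA1-binding repressor also named ZBRK1, was higher by 1.00 ± 0.15 with KB02 and by 0.21 ± 0.16 with KB05 (adjusted p = 0.293).

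The counts of the other clusters stand beside 22.8% higher and 23.3% lower of all genes tested with KB02, and 18.7% higher and 21.1% lower with KB05. Cluster 5, with 33 tested genes, had 14 higher (42.4%) and 5 lower (15.2%) with KB02, and 9 higher (27.3%) and 8 lower (24.2%) with KB05. Cluster 12, the cluster of ZNF224, had 8 of 23 higher (34.8%) and 4 lower (17.4%) with KB02, and 7 higher (30.4%) and 2 lower (8.7%) with KB05, with medians of 0.01 and 0.0. Cluster 9 had 12 of 24 higher with KB02 (50%) and 6 with KB05 (25%), and cluster 16 had 28 of 55 (50.9%) and 17 of 55 (30.9%). Cluster 8 had no gene higher and 2 of 4 lower with KB02. With a gap of 0.5 Mb the genes formed 20 clusters. Differences between clusters, and between a cluster and all genes, were not tested.

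**Figure D5:**
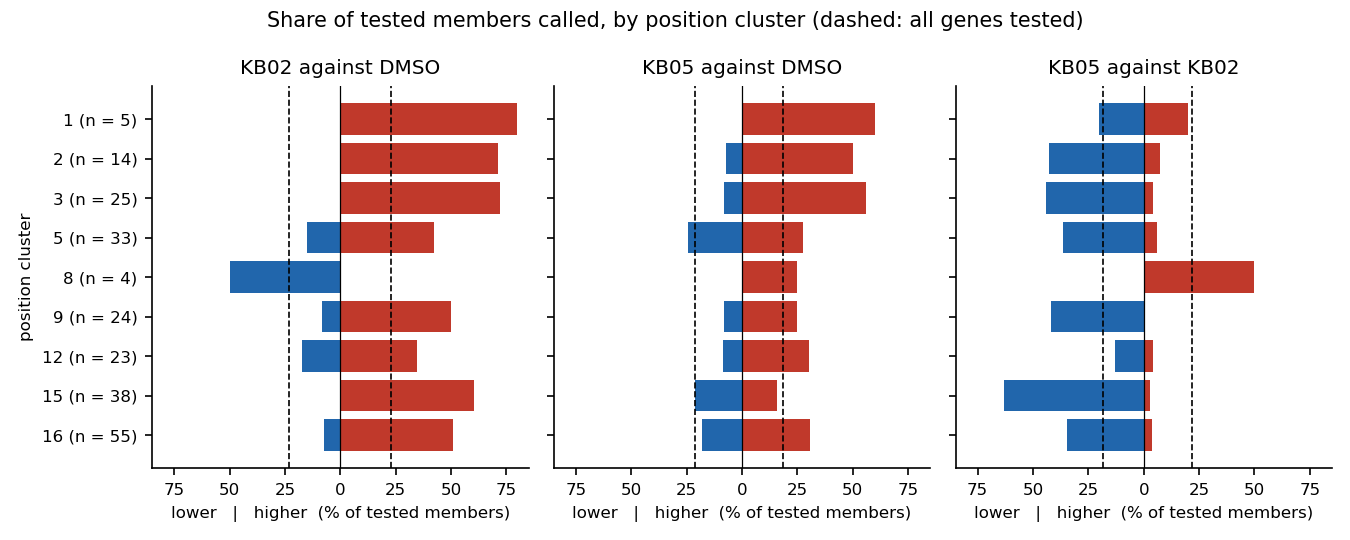
Share of tested genes called higher (to the right) and lower (to the left), in percent, in the 9 position clusters with 4 or more tested genes; dashed lines give the shares over all genes tested. In cluster 15 the share higher with KB02 against DMSO is 23 of 38 and the share lower with KB05 against KB02 is 24 of 38, while cluster 8, with 4 genes, has none higher with KB02.

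Genes with a studied role moved in different ways. ZNF473, which takes part in the processing of histone pre-mRNA, had 61.4, 62.1 and 60.3 CPM in KB02 libraries, 34.1, 35.2 and 33.2 CPM in KB05 libraries and 22.5, 28.0 and 24.8 CPM in DMSO libraries. The groups stood apart, KB02 being highest. The log2 fold change was 1.29 ± 0.08 with KB02 (adjusted p = 5.28e-14) and 0.44 ± 0.09 with KB05 (adjusted p = 9.98e-05).

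ZNF274, which binds the ends of zinc-finger genes and recruits TRIM28 and SETDB1 there, had 32.4, 35.5 and 39.4 CPM in KB02 libraries, 33.1, 26.1 and 24.2 CPM in KB05 libraries and 21.2, 20.1 and 21.5 CPM in DMSO libraries. Both compounds lay above DMSO, and 1 KB05 library fell within the KB02 range. It was higher by 0.77 ± 0.10 with KB02 and by 0.41 ± 0.11 with KB05, and the KB05 call was lost without the first KB05 library (adjusted p = 0.0513). The difference between the compounds, -0.36 ± 0.10, had an adjusted p of 0.0608 without the third KB05 library.

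ZNF91, a repressor of SVA retrotransposons, had 22.5, 21.3 and 22.5 CPM in KB02 libraries, 15.2, 15.3 and 14.3 CPM in KB05 libraries and 16.8, 17.2 and 17.6 CPM in DMSO libraries. KB02 was highest, and the KB05 libraries lay below DMSO without passing the test (log2 -0.21 ± 0.10, adjusted p = 0.102). The rise with KB02 was 0.36 ± 0.10 (adjusted p = 0.0025). ZNF93, a repressor of LINE-1 elements, had 0.02 ± 0.13 with KB02 (adjusted p = 0.926) and 0.41 ± 0.12 with KB05 (adjusted p = 0.00995), with adjusted p-values for KB05 of 0.0644 without the second DMSO and 0.0765 without the first KB05 library.

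Others did not pass the test against DMSO with either compound. ZNF331, an imprinted gene, had 0.03 ± 0.11 with KB02 and -0.19 ± 0.11 with KB05. ZNF382, a repressor silenced in several tumours, had 0.44 ± 0.26 and -0.02 ± 0.27, and ZNF808, needed for development of the human pancreas, had 0.17 ± 0.15 and -0.15 ± 0.15. ZNF649 had -0.32 ± 0.26 and 0.00 ± 0.27. ZNF146, whose protein consists almost only of fingers, had 0.15 ± 0.08 and -0.07 ± 0.08; with scaling by upper quartiles or by total count its KB02 difference passed (0.20 and 0.28, adjusted p = 0.0255 and 0.00404).

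The genes with the highest CPM in DMSO cells, other than ZNF146, rose with both compounds. ZNF574 had 80.9, 76.1 and 85.1 CPM in KB02 libraries, 48.7, 45.6 and 49.7 CPM in KB05 libraries and 34.1, 37.1 and 41.9 CPM in DMSO libraries, in that order with no overlap. Its log2 fold change was 1.10 ± 0.08 with KB02 and 0.35 ± 0.08 with KB05. ZNF787 rose by 0.74 ± 0.08 with each compound. ZNF444 rose by 0.54 ± 0.08 and 0.60 ± 0.08 and ZNF428 by 0.44 ± 0.11 and 0.49 ± 0.11.

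Among 24 genes of the corepressor and heterochromatin machinery that KRAB proteins use, 8 were higher (33.3%) and 5 lower (20.8%) with KB02, with a median log2 fold change of 0.02, beside 22.8% and 23.3% of all genes tested. With KB05, 2 were higher (8.33%) and 7 lower (29.2%), with a median of -0.05, beside 18.7% and 21.1% of all genes. TRIM28, which binds the KRAB domain, measured 1227, 1126 and 1255 CPM in KB02 libraries, 863, 822 and 869 CPM in KB05 libraries and 794, 920 and 946 CPM in DMSO libraries. KB02 stood above the other groups, which overlapped (log2 fold change 0.44 ± 0.07 with KB02, adjusted p = 8.45e-06, and -0.06 ± 0.07 with KB05, adjusted p = 0.561).

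ATF7IP, the partner of SETDB1, and EHMT1, a histone methyltransferase, had the same form, at 0.61 ± 0.08 and 0.47 ± 0.08 with KB02 and 0.04 ± 0.08 and 0.02 ± 0.08 with KB05. HDAC1, a histone deacetylase, fell by 0.81 with KB02 and by 0.79 with KB05 (SE 0.07 each). RESF1 had -0.66 ± 0.11 with KB02 and -0.30 ± 0.11 with KB05. Its KB05 call was lost in DESeq2 (adjusted p = 0.0613) and without the first DMSO library (0.22), among other fits. CHD3 had -0.34 with each compound (SE 0.07 and 0.08). TASOR had 0.32 ± 0.13 with KB02, a call lost in DESeq2 (adjusted p = 0.0922) and other fits, and -0.15 ± 0.13 with KB05. SMARCAD1, a chromatin remodeller, fell by 0.36 with KB02 (SE 0.09) and by 1.04 with KB05 (SE 0.10), and CHD4, the remodeller of the NuRD complex, by 0.35 and 0.68 (SE 0.07 each). Between the compounds, 2 of the 24 were higher (8.33%) and 8 lower (33.3%) with KB05, beside 21.8% and 18.2% of all genes tested.

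Of 17 chromosome 19 zinc-finger genes with other names, such as ZFP, ZSCAN or PEG3, 16 were in the table and 12 were tested. With KB02 4 were higher (33.3%) and none lower, beside 22.8% and 23.3% of all genes tested. With KB05 4 were higher (33.3%) and 1 lower (8.33%), beside 18.7% and 21.1%. The largest rise was that of ZSCAN5B, chosen here after its values were seen, at 3.15, 3.06 and 2.83 CPM in KB02 libraries, 2.24, 2.86 and 2.82 CPM in KB05 libraries and 0.318, 0.258 and 0.365 CPM in DMSO libraries. DMSO libraries lay near the floor of detection, and both compounds lay above them (log2 fold changes 3.25 ± 0.33 and 3.05 ± 0.34). With so few counts in DMSO, ZSCAN5B passed the low-count filter only through the treated groups, where it is high. Its rise is therefore not read as a result, though it is among the genes counted as higher with each compound.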

How the data were processed

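The authors deposited estimated counts for each gene, unscaled, in 1 column per library. Salmon 1.3.0, DESeq2 1.30.1, hg38 and GRCh38.p13 are listed per the submitters' processing notes, and the sources used here name no annotation release. A share of 20.26% to 24.3% of each library's values was not whole, and all were rounded to whole numbers.

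Counts were analysed with edgeR 4.0.16 in R 4.3.3: filterByExpr with a minimum count of 10, TMM factors, and a robust quasi-likelihood fit of the 3 groups without a block on all 9 libraries. Contrasts were adjusted by Benjamini-Hochberg over the 18379 genes tested at a threshold of 0.05, with the SE taken as the log2 fold change over the square root of F. Adjusted p-values of single genes are from this test unless DESeq2 is named. On simulated counts it recovered 79% to 86% of log2 changes of 1.0 and 49% to 56% of changes of 0.5. Of the simulated calls, 5.76% to 8.16% were false. In the simulation 100 genes changed at each size, far fewer than were called in the data. Chi-square per degree of freedom between replicates was 4.279 to 9.75, so no library was a copy of another. The p-values set the difference between groups against the spread of libraries within groups. That spread was estimated from all 9 libraries, with information drawn from other genes.

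Positions, overlaps, finger and KRAB patterns come from GENCODE release 29 on GRCh38; patterns were read from translated coding transcripts, where RefSeq proteins had been planned. Named genes are, per comparison, the 10 top rises and 6 top falls of called genes whose mean log2 CPM is 0 or more and whose libraries do not overlap, plus the 5 highest in DMSO, genes with known roles and the 4 most changed corepressor genes. The genes and lists were chosen with earlier results of these data known. Alternatives were other scalings, filters and fits, DESeq2 1.42.0, the replicate number as a block, and leaving out each library. The 15 samples taken at 8 h were not analysed here.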

Additional observations from a re-analysis of the deposited data

How the results depend on the processing

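Under the alternatives run, the counts and medians of the chromosome 19 ZNF genes kept their direction. No called difference of a named gene was called in the other direction. Differences of named genes that did not pass the test, some of them near zero, are not covered by this statement. The near-zero median of the other coding genes of chromosome 19 for KB05 against KB02 (0.05) crossed zero. Of the values of single named genes under an alternative, 85 lost the call and 10 gained it. Below, the cause of a moved value was not tested unless fewer genes or libraries explain it by construction.

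Scaling by total count alone moved the median of all genes by 0.13 for KB02 against DMSO. Under it the median of chromosome 19 ZNF genes was 0.52 for KB02, 0.16 for KB05 and -0.37 for KB05 against KB02, with 9 lower for KB02 and 6 higher for KB05 against KB02, and the summed level was 1.59 and 1.18 times that of DMSO for KB02 and KB05. For ZNF genes of other chromosomes it gave a median of 0.38 with 15 lower for KB02, and a median of -0.24 with 13 higher for KB05 against KB02. For other coding genes of chromosome 19 it gave medians of 0.24 for KB02 and -0.06 for KB05 against KB02, the second with 226 lower. Upper-quartile factors gave 0.44 for KB02 and 0.17 for KB05 (sums 1.5 and 1.19 times DMSO), and 0.30 for ZNF genes of other chromosomes with KB02. RLE factors gave 0.12 for KB05 (sum 1.15 times) and, for ZNF genes of other chromosomes, -0.15 for KB05 against KB02. DESeq2 gave 0.11 for KB05, 7 higher for KB05 against KB02, and for ZNF genes of other chromosomes -0.15 with 17 higher. No filter gave 0.12 for KB05, and a fit of only 2 groups gave -0.16 for ZNF genes of other chromosomes between the compounds. Leaving out the genes that overlap another coding gene left 138 tested, of which 72 were higher and 12 lower with KB02, 46 and 20 with KB05, and 53 lower with KB05 than with KB02.

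Leaving out 1 library at a time gave, for chromosome 19 ZNF genes, medians of 0.39 to 0.44, 106 to 113 higher and 9 to 18 lower for KB02. For KB05 it gave 64 to 67 higher and 27 to 33 lower. All of these counts lay below those of the main fit. For KB05 against KB02 it gave medians of -0.32 to -0.23, with 6 to 13 higher and 80 to 90 lower. For ZNF genes of other chromosomes it gave medians of 0.21 to 0.29 and 18 to 26 lower for KB02, and -0.18 to -0.10 with 17 to 23 higher for KB05 against KB02. The lowest counts of lower genes for KB02, and of higher genes for KB05 against KB02, came without the second DMSO library or the first or second KB02 library. For other coding genes of chromosome 19, the median for KB05 against KB02 was -0.02 to 0.08.

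Same-numbered libraries did not deviate together (correlations -0.041 to 0.081), so the numbers were not taken to pair them. With the replicate number as a block, 120 chromosome 19 ZNF genes were higher and 19 lower with KB02, 72 and 35 with KB05, and 12 and 88 for KB05 against KB02.

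The 13 genes not tested had at most 62 counts summed over the 9 libraries.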
